A study of Mus musculus with 12 samples.

Results

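Genes of cholinergic neurons were examined in RNA-seq libraries of mouse brain cortex. The 8 genes were chosen by name as Slc5a7, Chat, Slc18a3, Ache, Bche, Lhx8, Isl1 and Gbx1, out of 35275 genes in the table, because an earlier reading of these data had shown a rise of Slc5a7 in the Sirt3 knockout. All 8 passed the filter on low counts, as did 16673 genes in all. The values of Sirt3-/- against WT therefore chose the set and are given below as a description. The comparison of APP/PS1/Sirt3-/- with APP/PS1 uses none of those libraries and is the only one for which p-values of the 8 genes are given, although all 12 libraries share 1 estimate of the spread.

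The 12 libraries came from mice aged 8 months, 3 in each of 4 groups, with replicate numbers 1, 2 and 4. APP/PS1/Sirt3-/- mice carry transgenes for amyloid precursor protein (APP) and for a mutant form of human presenilin 1 on a Sirt3 knockout. Sirt3-/- mice carry the knockout alone, APP/PS1 mice carry the transgenes alone, and WT mice carry neither. The study asked how cortical expression differs with loss of Sirt3, a mitochondrial deacetylase, and with the transgenes that model amyloid deposition. Sirt3 was deleted globally, not in a chosen cell type. The study lists both WT and Sirt3-/- mice on 129 Sv and on C57BL/6 backgrounds, and APP/PS1 mice on C57BL/6. It does not say which WT and Sirt3-/- mice gave these libraries, so strain and genotype may not be told apart. Neither the labels nor the methods name the promoter that drives the transgenes. All 12 libraries are labelled female.

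Several libraries went against their labels. Sirt3 had 28.6, 0.211 and 27.7 CPM (read counts scaled to a common library size, with TMM factors) in replicates 1, 2 and 4 labelled APP/PS1/Sirt3-/-, against 0.186 to 0.467 CPM in Sirt3-/-, 59.0 to 64.3 CPM in APP/PS1 and 60.8 to 64.5 CPM in WT. App was 1623 CPM in replicate 4 labelled APP/PS1, against 3614 and 3794 CPM in its other libraries and 1755 to 1828 CPM in WT. Replicate 4 of every group held 8 to 53 Xist reads and 138 to 683 reads of each of 4 Y-linked genes, while the other 8 libraries held 6323 to 10832 Xist reads and at most 3 reads of any of those Y-linked genes. Each direction below rests on the labels, and the calls and the comparison of APP/PS1/Sirt3-/- with APP/PS1 are also given without these libraries. Reads in genes ranged from 15251720 to 18644376 per library, so a gene at 1 CPM rests on few reads.

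Cholinergic neurons make acetylcholine from choline and acetyl-CoA, load it into vesicles and release it, and a cholinesterase then splits it so that the choline can be taken up again. Most acetylcholine in the cortex comes from axons of cells in the basal forebrain, whose mRNA lies mainly in their cell bodies outside the cortex. Cell bodies with this machinery also sit in the striatum, the medial habenula and motor nuclei, and some cortical interneurons of the VIP class hold Chat.

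The 3 genes of the transmitter machinery carry the main pattern, and the bases upstream of their starts are shown to identify where each is read from. Slc5a7 (ENSMUSG00000023945) encodes the high-affinity choline transporter that returns choline to the terminal and lies on chromosome 17 from 54273594 to 54299034. Chat (ENSMUSG00000021919) encodes choline acetyltransferase, which makes acetylcholine, and lies on chromosome 14 from 32408203 to 32465909. Slc18a3 (ENSMUSG00000100241) encodes the vesicular acetylcholine transporter and lies on chromosome 14 from 32462438 to 32464850, wholly within the span of Chat on the same strand. Its 2413 exon bases share 0 with exons of Chat and it starts 1059 bases from the start of Chat, so the assignment of reads from unspliced Chat RNA is uncertain there. The genes are on the minus strand of GRCm38, and the 250 bases before each start, from RefSeq on GRCm38.p6, are chr17:54299035-54299284, chr14:32465910-32466159 and chr14:32464851-32465100. Capitals mark letters matching a searched motif.
Slc5a7: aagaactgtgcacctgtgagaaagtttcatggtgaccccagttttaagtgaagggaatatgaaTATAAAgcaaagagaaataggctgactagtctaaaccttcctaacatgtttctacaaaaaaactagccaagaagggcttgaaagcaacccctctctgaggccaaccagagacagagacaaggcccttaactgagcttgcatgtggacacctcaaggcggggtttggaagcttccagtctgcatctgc
Chat: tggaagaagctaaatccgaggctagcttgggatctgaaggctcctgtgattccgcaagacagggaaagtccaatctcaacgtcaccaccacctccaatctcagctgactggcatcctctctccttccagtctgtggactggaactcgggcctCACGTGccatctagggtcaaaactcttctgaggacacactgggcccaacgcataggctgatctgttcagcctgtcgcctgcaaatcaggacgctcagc
Slc18a3: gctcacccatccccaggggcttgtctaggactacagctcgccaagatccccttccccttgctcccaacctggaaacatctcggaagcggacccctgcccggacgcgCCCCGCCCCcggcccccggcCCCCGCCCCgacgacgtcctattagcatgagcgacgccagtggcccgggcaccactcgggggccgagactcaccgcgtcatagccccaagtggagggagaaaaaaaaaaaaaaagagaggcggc

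The windows of the 3 genes differed in make-up, with 45.6%, 54.8% and 66.0% G and C in Slc5a7, Chat and Slc18a3, against a median of 52.4% over 32851 mouse promoter windows of the same length. Of 5 motifs searched on both strands, TATAAA was found in Slc5a7, at 187 bases before its start, and in 12.4% of all windows. CACGTG was found in Chat, at 98 bases before its start, and in 6.02% of all windows. GGGGCGGGG was found on the other strand of Slc18a3, at 144 and 124 bases before its start, and in 10.4% of all windows. Windows were matched for 7 of the 8 genes. TAATTA, in 4.84% of all windows, and TGACGTCA, in 1.55%, were in 0 of the 7, and GGGGCGGGG was also in Ache and Bche and CACGTG also in Ache. No motif was shared by all 3 transmitter genes.

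Levels of the transmitter genes were low throughout, and lowest in WT. Slc5a7 had 7.16, 6.91 and 9.14 CPM in APP/PS1/Sirt3-/-, 5.33, 15.9 and 7.54 CPM in Sirt3-/-, 5.46, 4.57 and 2.97 CPM in APP/PS1, and 1.37, 1.06 and 2.03 CPM in WT. Each of the 9 other libraries lay above all 3 WT libraries for this gene, whose rise in Sirt3-/- led to the choice of the set. Group by group, libraries lay wholly above WT for 10.3% of all genes in Sirt3-/-, 13.3% in APP/PS1 and 13.0% in APP/PS1/Sirt3-/-. Chat had 6.70, 4.54 and 10.6 CPM in APP/PS1/Sirt3-/-, 5.64, 18.2 and 8.11 CPM in Sirt3-/-, 6.69, 1.35 and 2.23 CPM in APP/PS1, and 1.03, 0.465 and 1.71 CPM in WT. Replicate 2 of APP/PS1 fell within the WT range for Chat. Slc18a3 had 4.21, 3.06 and 5.67 CPM in APP/PS1/Sirt3-/-, 2.54, 9.40 and 2.91 CPM in Sirt3-/-, 5.08, 1.16 and 2.17 CPM in APP/PS1, and 0.228, 0.266 and 0.571 CPM in WT. For Slc18a3, too, all 9 other libraries lay above WT, whose 3 libraries held 4, 4 and 9 reads. In these bulk samples, fewer cells of a type and less RNA per cell cannot be told apart.

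The cholinesterases behaved otherwise. Ache (ENSMUSG00000023328, chromosome 5 from 137287519 to 137294466) encodes acetylcholinesterase, which splits the transmitter at the synapse and is also made by cells that do not release it. It was by far the highest of the 8 per length, at 34.4 ± 3.14 FPKM in APP/PS1/Sirt3-/-, 28.4 ± 8.45 FPKM in Sirt3-/-, 31.2 ± 1.90 FPKM in APP/PS1 and 20.9 ± 0.820 FPKM in WT (SD, n = 3 each), against group means of at most 3.80 FPKM for the other 7. In CPM, Ache had 120.4, 137 and 119 in APP/PS1/Sirt3-/-, 81.4, 136 and 96.6 in Sirt3-/-, 122, 106 and 112 in APP/PS1, and 77.3, 82.1 and 76.8 in WT. Replicate 1 of Sirt3-/- fell within the WT range, and all libraries of both groups labelled APP/PS1 lay above it. By group, 13.3% of all genes lay wholly above WT in APP/PS1 and 13.0% in APP/PS1/Sirt3-/-. Bche (ENSMUSG00000027792, chromosome 3 from 73635808 to 73708415) encodes butyrylcholinesterase, which splits choline esters more broadly. It had 4.21, 4.59 and 2.43 CPM in APP/PS1/Sirt3-/-, 3.41, 5.43 and 4.37 CPM in Sirt3-/-, 4.39, 5.15 and 5.71 CPM in APP/PS1, and 4.80, 4.39 and 4.32 CPM in WT. The groups overlapped for Bche, and its lowest value was in replicate 4 of APP/PS1/Sirt3-/-.

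Lhx8, Isl1 and Gbx1 encode homeodomain transcription factors of developing forebrain neurons. Lhx8 (ENSMUSG00000096225, chromosome 3 from 154306294 to 154330561) is needed in mice for forebrain cholinergic neurons to form. It had 3.12, 0.106 and 5.79 CPM in APP/PS1/Sirt3-/-, 1.92, 7.65 and 2.72 CPM in Sirt3-/-, 2.78, 0.708 and 0.628 CPM in APP/PS1, and 0.171, 0.199 and 0.127 CPM in WT, where 2 or 3 reads a library were counted. Replicate 2 of APP/PS1/Sirt3-/- held 2 reads and was the lowest of the 12. Isl1 (ENSMUSG00000042258, chromosome 13 from 116298281 to 116309689) also marks striatal projection neurons of the direct pathway and motor neurons. It had 5.08, 1.21 and 8.79 CPM in APP/PS1/Sirt3-/-, 2.92, 13.6 and 3.48 CPM in Sirt3-/-, 5.94, 1.54 and 1.37 CPM in APP/PS1, and 1.03, 0.399 and 1.02 CPM in WT. Replicate 2 of Sirt3-/- and replicate 4 of APP/PS1/Sirt3-/- were the highest libraries for both Isl1 and Chat. Gbx1 (ENSMUSG00000067724, chromosome 5 from 24502757 to 24527202) had 2.19, 0.211 and 5.32 CPM in APP/PS1/Sirt3-/-, 0.744, 6.13 and 1.84 CPM in Sirt3-/-, 2.51, 0.322 and 0.514 CPM in APP/PS1, and 0.285, 0.465 and 0.190 CPM in WT. Within APP/PS1/Sirt3-/-, the highest library was 54.8 times the lowest for Lhx8 and 25.2 times for Gbx1, against 1.32 times for Slc5a7.

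**Figure D1:**
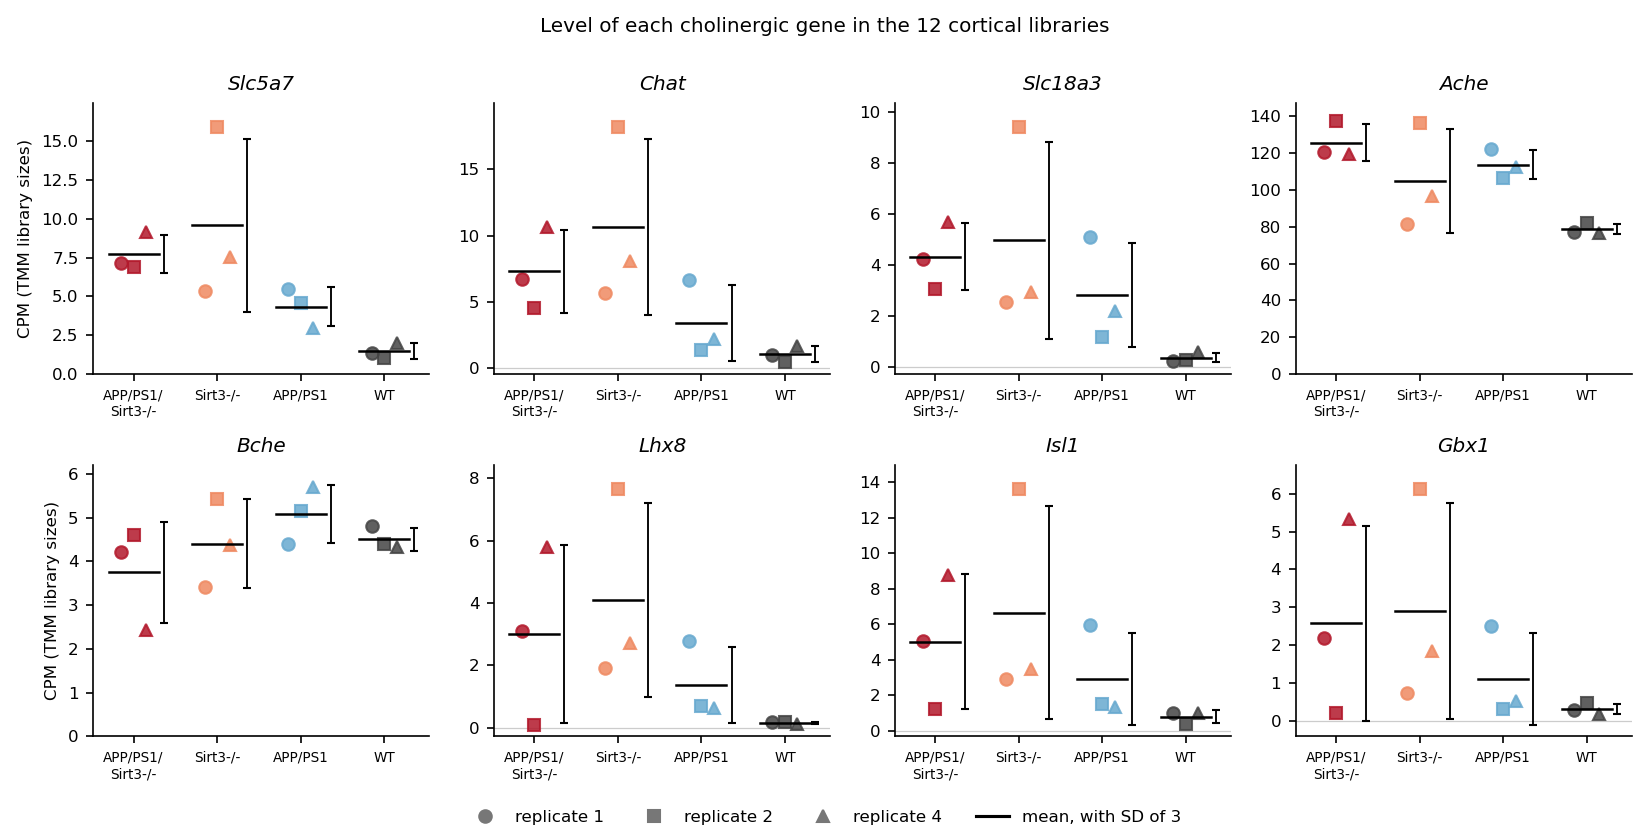
CPM of the 8 cholinergic genes in each library (points, shape by replicate number) with the mean of 3 libraries (line) and its SD (bar), by group, on linear axes that differ between genes. Slc5a7 lay at 6.91 to 9.14 CPM in APP/PS1/Sirt3-/- and at 1.06 to 2.03 CPM in WT, and the highest Sirt3-/- library is replicate 2 in every panel.

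The comparison of libraries labelled APP/PS1/Sirt3-/- with those labelled APP/PS1 was the one that the choice of genes did not use, and no cholinergic gene passed its test. It is a test of the labels, as replicates 1 and 4 of APP/PS1/Sirt3-/- had 28.6 and 27.7 CPM of Sirt3. Replicate 4 of APP/PS1 had 1623 CPM of App. It does not isolate loss of Sirt3. With edgeR's quasi-likelihood test and Benjamini-Hochberg adjustment over 16673 genes, 0 of the 8 were called at an adjusted p under 0.05, where 0.024% of all genes were called. DESeq2 on the 12 libraries also called 0 of the 8, and 7 genes in all. At an unadjusted p under 0.05 edgeR gave 1 of the 8, Slc5a7, beside 4.86% of all genes. Slc5a7 averaged 7.74 ± 1.22 CPM in APP/PS1/Sirt3-/- and 4.33 ± 1.26 CPM in APP/PS1 (SD, n = 3 each), a log2 fold change of 0.83 with a standard error of 0.37 and an edgeR adjusted p of 0.974, and its groups did not overlap. Groups that did not overlap were found for 11.9% of all genes in this comparison. Chat averaged 7.29 ± 3.10 CPM in APP/PS1/Sirt3-/- and 3.42 ± 2.86 CPM in APP/PS1 (log2 fold change 1.07, standard error 0.65), and Slc18a3 averaged 4.31 ± 1.31 CPM in APP/PS1/Sirt3-/- and 2.80 ± 2.04 CPM in APP/PS1 (0.60, standard error 0.59). Each of these had an edgeR adjusted p of 0.974, as did the other 5 genes.

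Of the other 5, Ache had a log2 fold change of 0.14 with a standard error of 0.15 and Bche of -0.44 with a standard error of 0.24. Lhx8, Isl1 and Gbx1 had 1.09, 0.75 and 1.16, with standard errors of 0.99, 0.86 and 1.08. The median over the 8 was 0.79 and 7 were positive, beside a median of 0.00645 and 52% positive over all genes. These sizes depended on single libraries. Without replicate 4 of APP/PS1/Sirt3-/- the log2 fold changes were 0.70 for Slc5a7, 0.69 for Chat, 0.36 for Slc18a3, 0.19 for Lhx8, 0.07 for Isl1 and 0.05 for Gbx1. Without replicate 1 of APP/PS1 they were 1.04, 2.01, 1.36, 2.15, 1.78 and 2.58 for the same genes. Without replicates 1 and 4 of APP/PS1/Sirt3-/-, which had 28.6 and 27.7 CPM of Sirt3, 1 library of that group was left, which was assumed to vary like the other groups. There the log2 fold changes were 0.66 for Slc5a7, 0.38 for Chat, 0.10 for Slc18a3 and -3.64 for Lhx8. Without the 4 libraries with few Xist reads they were 0.48, 0.45, 0.19 and -0.17 for those 4 genes, and no gene of the 8 was called in either fit.

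**Figure D2:**
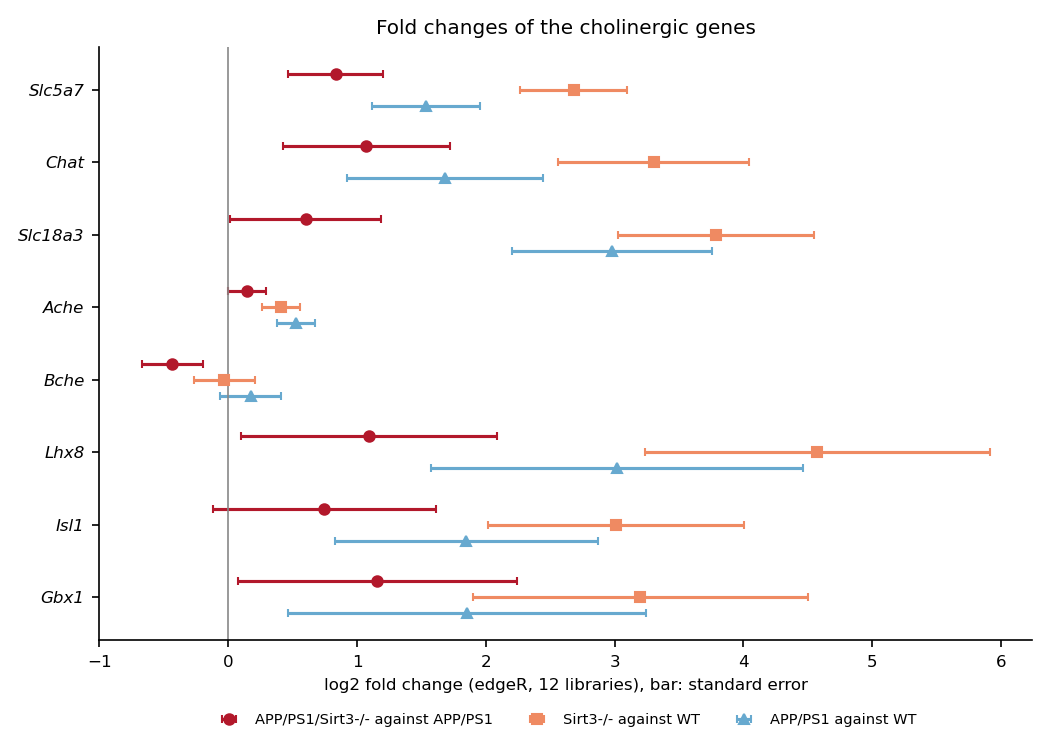
Log2 fold changes (points) and their standard errors (bars) of the 8 genes from 1 edgeR fit to 12 libraries, for APP/PS1/Sirt3-/- against APP/PS1, Sirt3-/- against WT and APP/PS1 against WT. Slc5a7 was at 0.83, 2.68 and 1.54 in that order, and Bche lay nearest to 0 against WT.

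In the comparison that chose the genes, Sirt3-/- against WT, 6 of the 8 had every Sirt3-/- library above every WT library, where 10.3% of all genes did, and edgeR called 1 of the 8, Slc5a7, where 0.294% of all genes were called. Nothing is read from these counts. Slc5a7 averaged 9.58 ± 5.56 CPM in Sirt3-/- and 1.49 ± 0.495 CPM in WT (SD, n = 3 each), with a log2 fold change of 2.68 ± 0.41 (SE). Chat averaged 10.6 ± 6.63 CPM in Sirt3-/- and 1.07 ± 0.625 CPM in WT, and Slc18a3 4.95 ± 3.86 CPM in Sirt3-/- and 0.355 ± 0.188 CPM in WT, with log2 fold changes of 3.30 ± 0.74 and 3.79 ± 0.76 (SE). For the factors they were 4.57 ± 1.34 in Lhx8, 3.01 ± 1.00 in Isl1 and 3.20 ± 1.30 in Gbx1, where Lhx8 rested on 205 reads in Sirt3-/- and 8 reads in WT, a ratio of reads of 25.2 with an exact 95% interval of 12.6 to 59.3 that covers counting error only. Ache and Bche, whose groups overlapped, had 0.41 ± 0.15 and -0.03 ± 0.24 (SE). The call of Slc5a7 was lost without any 1 of the 3 WT libraries, without replicate 2 of APP/PS1 or without replicate 1 of APP/PS1/Sirt3-/-, which share the estimate of spread. It was also lost under the replicate block, without the 3 libraries at odds in Sirt3 or App, without the 4 with few Xist reads or with those as a covariate. With edgeR on only these groups the 1 gene called was Lhx8 in place of Slc5a7.

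The libraries labelled APP/PS1, 1 of which had App at 1623 CPM, were set against the same WT libraries that the choice of genes used. In APP/PS1 against WT edgeR called 0 of the 8, where 0% of all genes were called. An unadjusted edgeR p under 0.05 was found for 3 of the 8, where 17% of all genes had one. DESeq2 on 12 libraries called 3 of the 8, and 498 genes in all. Of the 8, 5 did not overlap with WT and all 5 were higher, where 13.3% of all genes were higher without overlap, while Chat, Bche and Gbx1 overlapped. The log2 fold changes were 1.54 ± 0.42 for Slc5a7, 2.98 ± 0.78 for Slc18a3 and 0.53 ± 0.15 for Ache (SE). In APP/PS1/Sirt3-/- against WT, 1 of the 8 was called, Slc5a7, where 1.13% of all genes were called, and its log2 fold change was 2.37 ± 0.41 (SE). There too 5 of the 8 were higher without overlap, where 13.0% of all genes were. That call of Slc5a7 was lost without any 1 of the WT libraries, without replicate 2 of APP/PS1 and without replicate 1 or 2 of APP/PS1/Sirt3-/-. It was also lost under the replicate block, without replicates 1 and 4 of APP/PS1/Sirt3-/-, without all 3 libraries at odds in Sirt3 or App and without the 4 with few Xist reads. In APP/PS1/Sirt3-/- against Sirt3-/-, edgeR called 0 of the 8, where 0% of all genes were called, and 0 had an unadjusted p under 0.05, where 11.4% of all genes did. DESeq2 on 12 libraries called 0 of the 8, and 128 genes in all. Log2 fold changes ran between -0.55 for Chat and 0.26 for Ache.

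The transmitter genes and the factors Lhx8 and Gbx1 parted in 1 library. Summed over Slc5a7, Chat and Slc18a3, libraries had 18.1, 14.5 and 25.5 CPM in APP/PS1/Sirt3-/-, 13.5, 43.4 and 18.6 CPM in Sirt3-/-, 17.2, 7.08 and 7.36 CPM in APP/PS1, and 2.63, 1.79 and 4.32 CPM in WT. Lhx8 and Gbx1 summed to 5.31, 0.317 and 11.1 CPM in APP/PS1/Sirt3-/-, 2.67, 13.8 and 4.56 CPM in Sirt3-/-, 5.30, 1.03 and 1.14 CPM in APP/PS1, and 0.457, 0.665 and 0.317 CPM in WT. Replicate 2 of APP/PS1/Sirt3-/-, which had 0.211 CPM of Sirt3, thus had 14.5 CPM of transmitter genes with a WT level of Lhx8 and Gbx1. It held 2.18 reads of Lhx8 and Gbx1 per 100 reads of the transmitter genes (exact 95% interval 0.794 to 4.81, counting error only), against 14.5 to 43.6 in the 8 other libraries that are not WT and 7.35 to 37.0 in WT. These sums leave out Isl1, which had 1.21 CPM in that library, above the 0.399 to 1.03 CPM of WT. With Isl1 included, it held 10.5 factor reads per 100, against 34.1 to 78.2 in the 8 other libraries that are not WT and 30.9 to 59.3 in WT.

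**Figure D3:**
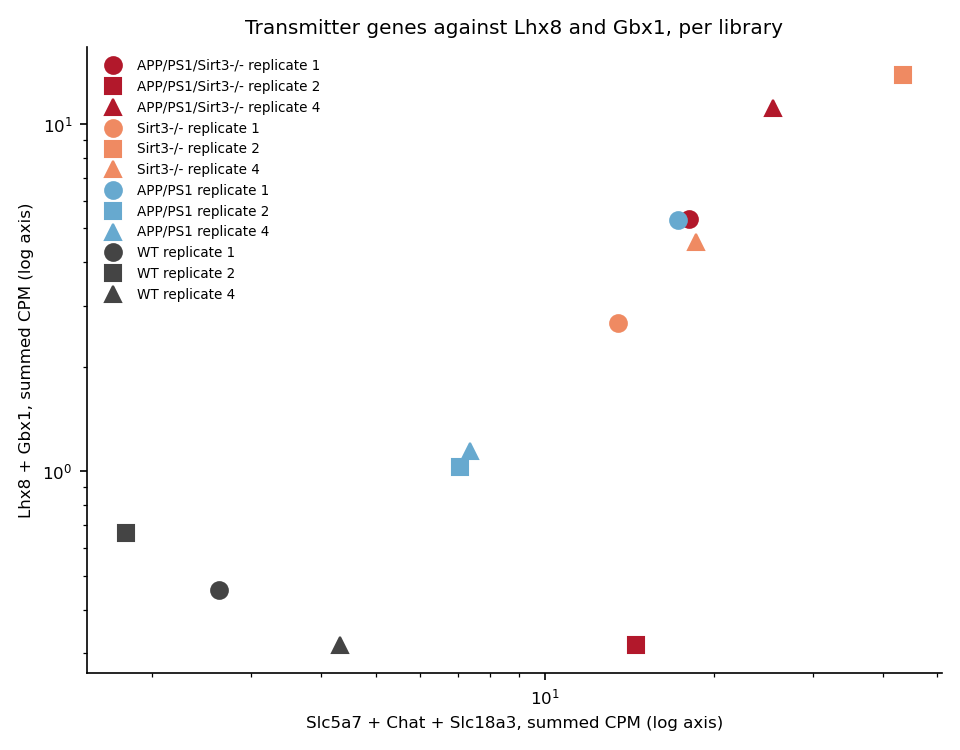
Summed CPM of Slc5a7, Chat and Slc18a3 (x, log axis) against summed CPM of Lhx8 and Gbx1 (y, log axis), with 1 point for each of 12 libraries, colored by group and shaped by replicate number. The library APP/PS1/Sirt3-/- replicate 2 stands at 14.5 and 0.317 CPM, below the other non-WT libraries.

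Over the 12 libraries, log2 CPM of Slc5a7 and Chat had a Pearson r of 0.939, Chat and Slc18a3 of 0.942, and Lhx8 and Gbx1 of 0.949. After the group means were removed, these were 0.774, 0.922 and 0.955, so the pairs also moved together among libraries of a group. Bche had r between -0.356 and 0.088 with the other 7. The libraries share tissue make-up and depth, so these values are descriptive. Among 16665 genes outside the set, the 5 most like Slc5a7 were Tacr1 (r = 0.974), Klhl13 (0.969), C230014O12Rik (0.961), Htr1d (0.958) and Pbx3 (0.956). Klhl13 was also nearest to Chat (0.966), followed by Cacng4, Htr1d, Prkch and Fam110b. Slc18a3 was most like Hs3st5 (0.974), then Pbx3, Srgap1, Rgs8 and Klhl13, and Ache most like Ctxn2 (0.978), then Fam196b, Grb10, Mrap2 and Itih3. The lists of Slc5a7, Chat and Slc18a3 share genes with each other and none with that of Ache.

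Other genes of acetylcholine signaling were taken from a list of 57, of which 50 passed the filter. In APP/PS1/Sirt3-/- against APP/PS1, edgeR called 0 of the 50, where 0.024% of all genes were called. DESeq2 on only those groups called 1 of the 50, Slc10a4, and 30 genes in all. At an unadjusted p under 0.05 edgeR gave 6 of the 50, beside 4.86% of all genes. The median log2 fold change was 0.07 with 31 positive, beside 0.00645 and 52% positive over all genes. Slc10a4, an orphan vesicular carrier found in cholinergic neurons, had 9.53, 12.2 and 10.4 CPM in APP/PS1/Sirt3-/-, 4.03, 14.9 and 4.43 CPM in Sirt3-/-, 6.47, 2.12 and 2.91 CPM in APP/PS1, and 0.571, 0 and 0.698 CPM in WT. Its APP/PS1/Sirt3-/- libraries lay above all APP/PS1 libraries (log2 fold change 1.47, standard error 0.62, edgeR adjusted p = 0.974), as for 5.7% of all genes. Slc17a8, the vesicular glutamate carrier VGLUT3 that striatal cholinergic interneurons also use, had 5.25, 6.75 and 6.19 CPM in APP/PS1/Sirt3-/-, 5.89, 7.71 and 3.61 CPM in Sirt3-/-, 3.64, 2.44 and 3.20 CPM in APP/PS1, and 2.51, 1.99 and 2.79 CPM in WT, and its log2 fold change between both transgenic groups was 0.97 (standard error 0.26, edgeR adjusted p = 0.974).

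Against WT, edgeR called 4 of the 50 as higher in APP/PS1/Sirt3-/-, with 0 lower, where 1.13% of all genes were called. An unadjusted edgeR p under 0.05 was found for 23 of the 50, beside 20.1% of all genes. The WT libraries are those that the choice of genes used, and the list was chosen with earlier results known. These calls and their p-values are therefore given as a description. The 4 called were Slc17a8 (edgeR adjusted p = 0.0375), Chrm5 (0.0375), Slc10a4 (0.0384) and Gbx2 (0.0393). Chrm5, a muscarinic receptor, averaged 1.48 ± 0.595 CPM in APP/PS1/Sirt3-/- and 0.141 ± 0.0818 CPM in WT (SD, n = 3 each). Gbx2, a homeodomain factor that marks thalamic neurons, averaged 2.29 ± 1.09 CPM in APP/PS1/Sirt3-/- and 0.0402 ± 0.0350 CPM in WT (SD, n = 3 each). WT libraries had 0.228, 0.0665 and 0.127 CPM of Chrm5 and 0.0571, 0 and 0.0635 CPM of Gbx2. Both thus passed the filter on low counts through libraries of other groups. Leaving out any 1 WT library ended all 4 calls, with edgeR adjusted p of 0.0825 to 0.152, as did leaving out replicate 2 of APP/PS1 (0.0516 to 0.0607) or replicate 1 (0.124 to 0.137) or 2 (0.0963 to 0.103) of APP/PS1/Sirt3-/-. Leaving out replicate 4 of APP/PS1 ended the calls of Slc17a8, Slc10a4 and Gbx2 (0.0565 to 0.0573), and leaving out replicate 1 of APP/PS1 ended that of Gbx2 (0.0611). The replicate block also ended all 4 (0.0545 to 0.0624), as did leaving out the 4 libraries with few Xist reads (0.0740 to 0.158). Without replicates 1 and 4 of APP/PS1/Sirt3-/-, the edgeR adjusted p was 0.0719 for Slc17a8, 0.0943 for Slc10a4 and 0.0539 for Gbx2, while Chrm5 stayed called (0.0439). Without all 3 libraries at odds in Sirt3 or App it was 0.102, 0.134 and 0.0795 for the same genes and 0.0416 for Chrm5, and with few-Xist libraries as a covariate the call of Gbx2 ended (0.0504). With no filter on low counts the calls of Slc10a4 (0.0564) and Gbx2 (0.0543) ended. The 4 log2 fold changes were positive in every fit run.

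Genes of the receiving and supporting side are given by the most abundant members of each subgroup. The muscarinic receptors most abundant in the cortex, Chrm1 and Chrm3, averaged 151 ± 24.9 and 45.6 ± 2.56 CPM in APP/PS1/Sirt3-/- and 164 ± 5.70 and 53.9 ± 3.45 CPM in APP/PS1 (SD, n = 3 each), log2 fold changes of -0.11 and -0.24. The nicotinic subunits Chrna4 and Chrnb2 had -0.10 and 0.10, the choline carrier Slc44a1 and choline kinase Chka -0.02 and -0.07, the receptor modulators Lynx1 and Ly6h -0.13 and 0.09, the factors Zic1 and Ldb1 0.67 and -0.09, and the acetylcholinesterase anchor Prima1 0.20. For the neurotrophin receptor Ngfr, which basal forebrain cholinergic neurons use, the value was 0.22. The edgeR adjusted p of these genes in APP/PS1/Sirt3-/- against APP/PS1 ranged from 0.974 to 0.990. Some values were larger against WT. In Sirt3-/- against WT, the log2 fold changes of Ngfr, Zic1, Chrm1 and Chrm3 were 1.70, 1.42, -0.21 and -0.26. In APP/PS1/Sirt3-/- against WT they were 1.22, 1.77, -0.39 and -0.60. Of the 50 listed genes, edgeR called 0 in Sirt3-/- against WT, where 0.294% of all genes were called. There 13 of the 50 had an unadjusted edgeR p under 0.05, beside 13.5% of all genes.

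Markers of regions that border the cortex also varied between libraries, in part with the cholinergic genes and in part not. Of 18 striatal projection neuron markers, 17 were in the table, and they summed to 1877, 632 and 2788 CPM in APP/PS1/Sirt3-/-, 3069, 4485 and 2593 CPM in Sirt3-/-, 1975, 884 and 1002 CPM in APP/PS1, and 1001, 646 and 1152 CPM in WT. The Sirt3-/- libraries did not overlap WT. Against WT, all 17 had positive log2 fold changes in Sirt3-/- (median 2.44), APP/PS1 (0.78) and APP/PS1/Sirt3-/- (1.29). Over all genes, 50.5% to 51.3% were positive there. All 17 were also positive in APP/PS1/Sirt3-/- against APP/PS1 (median 0.45), beside 52% of all genes. In APP/PS1/Sirt3-/- against Sirt3-/-, 0 of the 17 were positive (median -0.92), beside 48.6% of all genes. In Sirt3-/- against WT edgeR called 0 of the 17, where 0.294% of all genes were called, and 16 had an unadjusted p under 0.05, where 13.5% of all genes did. DESeq2 on 12 libraries called 13 of the 17, and 427 genes in all. In APP/PS1/Sirt3-/- against APP/PS1 all 3 counts were 0, beside 0.024% of all genes called by edgeR, 4.86% with an unadjusted p under 0.05 and 7 genes called by DESeq2. Sirt3-/- replicate 2 was the highest of the 12 both for the sum of these markers and for Slc5a7, Chat, Slc18a3, Lhx8, Isl1 and Gbx1. In replicate 2 of APP/PS1/Sirt3-/- the striatal sum was the lowest of the 12, as was its Lhx8, beside 14.5 CPM of the 3 transmitter genes. The most abundant striatal marker, Adcy5, had 417, 213 and 629 CPM in APP/PS1/Sirt3-/-, 604, 901 and 545 CPM in Sirt3-/-, 431, 251 and 259 CPM in APP/PS1, and 303, 205 and 284 CPM in WT, and Ppp1r1b and Pde10a had their highest level in the same Sirt3-/- library, at 723 and 539 CPM.

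Thalamic markers (12 of 12 in the table) summed to 626, 674 and 206 CPM in APP/PS1/Sirt3-/-, 173, 301 and 315 CPM in Sirt3-/-, 419, 437 and 540 CPM in APP/PS1, and 198, 199 and 203 CPM in WT. In Sirt3-/-, APP/PS1 and APP/PS1/Sirt3-/- against WT, edgeR called 0 of the 12 each time, where 0.294%, 0% and 1.13% of all genes were called. An unadjusted p under 0.05 was found for 1, 10 and 10, where 13.5%, 17% and 20.1% of all genes had one. DESeq2 on 12 libraries called 0, 7 and 8, and 427, 498 and 1047 genes in all. Medial habenula markers (7 of 7) summed to 66.7, 104 and 39.5 CPM in APP/PS1/Sirt3-/-, 41.9, 49.4 and 65.4 CPM in Sirt3-/-, 60.0, 58.2 and 45.3 CPM in APP/PS1, and 59.6, 43.5 and 41.7 CPM in WT. Replicate 2 of APP/PS1/Sirt3-/- was the highest of the 12 for both lists, where it also held transmitter genes with few reads of Lhx8 and Gbx1. Other libraries differed: replicate 4 of APP/PS1/Sirt3-/- had 25.5 CPM of the transmitter genes with the lowest habenular sum of the 12, and replicate 1 of Sirt3-/- had 13.5 CPM with the lowest thalamic sum. The habenular sums rest largely on Nwd2, with 28.8 of the 39.5 CPM in that APP/PS1/Sirt3-/- library and 52.6 of the 59.6 CPM in WT replicate 1. By mean log2 CPM of the 7 habenular markers (0.5 CPM added), that APP/PS1/Sirt3-/- library had 1.01, against 0.807 to 0.958 in WT, and was not the lowest. The habenular factor Irx2 had 7.10, 10.5 and 0.116 CPM in APP/PS1/Sirt3-/-, 0.124, 0.584 and 1.90 CPM in Sirt3-/-, 5.30, 4.63 and 4.39 CPM in APP/PS1, and 0.114, 0 and 0 CPM in WT.

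Septum and pallidum markers, where basal forebrain cholinergic cells lie, summed to 160 to 210 CPM in APP/PS1/Sirt3-/-, 88.0 to 229 CPM in Sirt3-/-, 125 to 158 CPM in APP/PS1 and 72.7 to 117 CPM in WT. In WT, Dgkg alone held 69.9 of the 117 CPM in replicate 1 and 34.8 of the 72.7 CPM in replicate 4. Mean log2 CPM of the 10 markers (0.5 CPM added) ran from 1.70 to 2.09 in WT. Every library outside WT lay higher, with the lowest value, 2.24, in replicate 1 of Sirt3-/-. Of these 10 markers edgeR called 2 as higher in Sirt3-/- against WT (median log2 fold change 1.85), Onecut2 and Tacr1, where 0.294% of all genes were called. That comparison chose the cholinergic genes, and Tacr1 was the gene most like Slc5a7 over the 12 libraries (r = 0.974). In APP/PS1/Sirt3-/- against WT (median 1.88) edgeR called 1 as higher, Tacr1, where 1.13% of all genes were called. In APP/PS1 against WT (median 1.28) it called 0, where 0% of all genes were called. An unadjusted edgeR p under 0.05 was found for 6, 4 and 7 of the 10 in Sirt3-/-, APP/PS1 and APP/PS1/Sirt3-/- against WT. Over all genes, 13.5%, 17% and 20.1% had one. DESeq2 on 12 libraries called 3, 3 and 6 in that order, and 427, 498 and 1047 genes in all. In APP/PS1/Sirt3-/- against APP/PS1 (median 0.47) edgeR called 0, where 0.024% of all genes were called. There 0 of the 10 had an unadjusted p under 0.05, beside 4.86% of all genes, and DESeq2 on 12 libraries called 0, and 7 genes in all. Onecut2 was named after its values were seen. Hindbrain motor nucleus markers summed to at most 1.64 CPM in any library, with 3 to 7 of 8 genes at 0. VIP interneuron markers summed to 326 to 342 CPM in APP/PS1/Sirt3-/-, 207 to 412 CPM in Sirt3-/-, 320 to 404 CPM in APP/PS1 and 393 to 435 CPM in WT. Cortical excitatory neuron markers, which check the tissue label, were present in all libraries and summed to 1583 to 2054 CPM in APP/PS1/Sirt3-/-, 1302 to 2441 CPM in Sirt3-/-, 1841 to 2022 CPM in APP/PS1 and 2454 to 2817 CPM in WT. Every library outside WT thus lay below all WT libraries. Of the 10 markers, 0 had a positive log2 fold change in Sirt3-/-, APP/PS1 or APP/PS1/Sirt3-/- against WT, where 50.5% to 51.3% of all genes did. Their medians were -0.41, -0.49 and -0.66 in that order. Choroid plexus markers ran between 15.5 and 1771 CPM over the 12 libraries and leptomeningeal fibroblast markers between 81.2 and 314 CPM. The part of tissue make-up in the levels of the cholinergic genes was not tested.

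**Figure D4:**
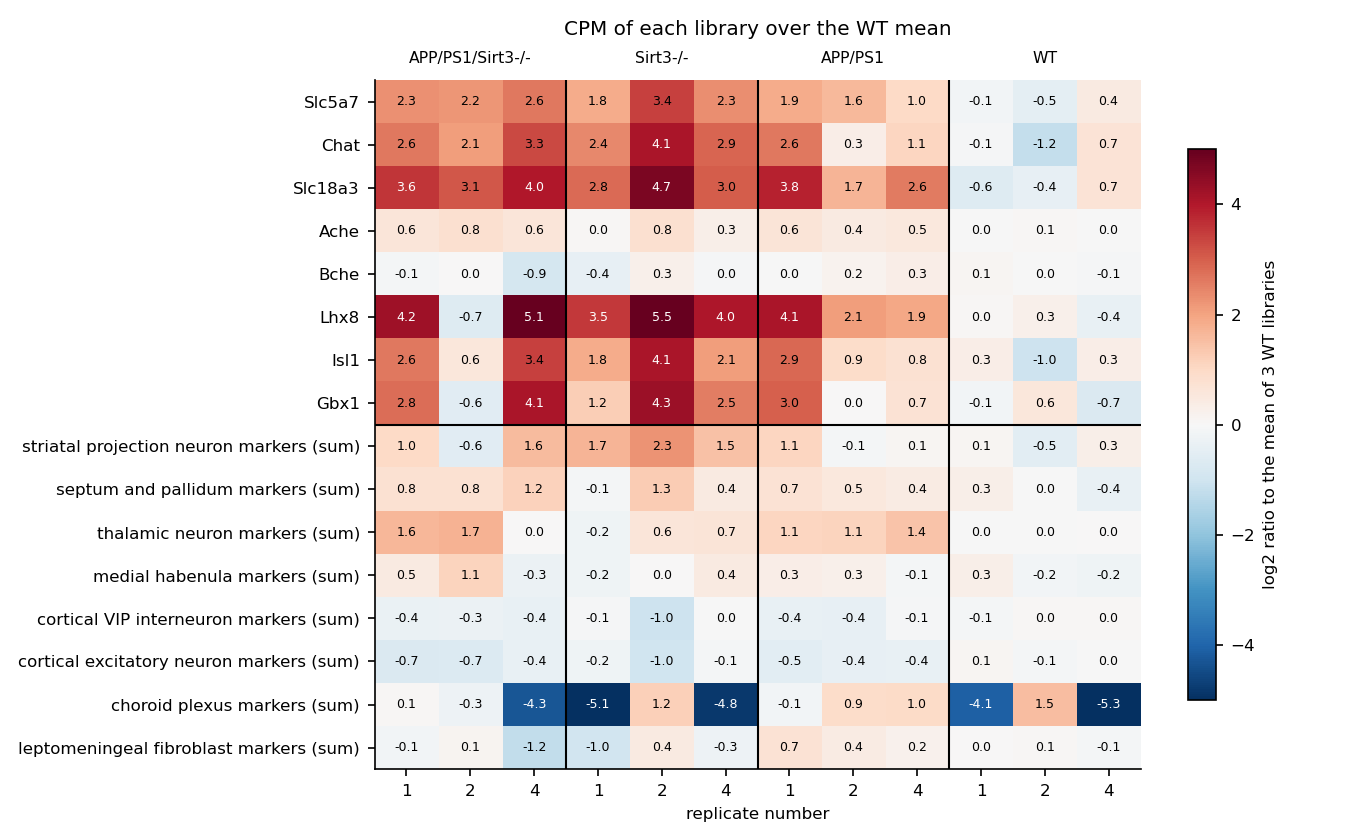
Log2 ratio of CPM in each library to the mean of 3 WT libraries, for the 8 genes (upper rows) and for summed CPM of 8 marker lists (lower rows), with libraries in columns by group and replicate number. Red is above and blue below the WT mean, and replicate 2 of APP/PS1/Sirt3-/- has Slc5a7 at 2.22 with Lhx8 at -0.65 and the striatal sum at -0.56.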

How the data were processed

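The authors aligned reads with TopHat to GRCm38 (mm10), allowing 2 mismatches, and deposited whole-number read counts per gene. FPKM values of each library, also deposited by the authors, served only to set genes side by side per length. The tool that counted reads per gene is named neither in the study's methods nor in the labels. Deposited fold changes, p-values and group means of the authors' own DESeq2 comparisons were not used.

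The tests ran in edgeR 4.0.16 under R 4.3.3. After filterByExpr, 16673 genes were left and scaled by TMM, and 1 quasi-likelihood model with robust estimation was fitted to the 4 group means of 12 libraries. P-values were adjusted over all genes (Benjamini-Hochberg) and read at 0.05. Log2 CPM used a prior count of 2. Exact 95% intervals cover counting error only. Steps were tested on simulated counts. Motifs were searched in RefSeq promoter windows (GRCm38.p6). Tables used Python 3.11.15 with pandas 2.3.3, numpy 2.4.6 and scipy 1.17.1.

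The 8 genes, the gene lists, the tests and the rule for named genes were chosen with earlier results of these data known. The rule takes all 8 genes, label checks, the 2 most abundant genes of each signaling subgroup and every listed gene called, the 3 most abundant of each marker list (named only where a result turns on them) and the 5 genes most like each of Slc5a7, Chat, Slc18a3 and Ache. A result of 1 listed gene is not reported here. Alternatives were DESeq2 1.42.0, RLE scaling, other filters (none, or a mean of 1 CPM), a replicate block, fits of only the groups compared, each library left out, and fits without libraries at odds with their labels. Leaving out the libraries with few Xist reads, giving them a covariate, and DESeq2 counts for the marker lists were added after seeing the data. The study gives 4 mice a group, and 3 libraries a group were analysed here.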

Additional observations from a re-analysis of the deposited data

How the results depend on the processing

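No alternative called any of the 8 genes in APP/PS1/Sirt3-/- against APP/PS1 (0 in each of 23 fits, 0 to 0 with 1 library left out), and edgeR and DESeq2 adjusted p ranged from 0.317 to 1. Fold changes kept their sign for Slc5a7, Chat, Ache and Bche. Without replicates 1 and 4 of APP/PS1/Sirt3-/- those of Lhx8, Isl1 and Gbx1 were -3.64, -1.30 and -2.40, and with replicate 4 of APP/PS1 also left out they were -3.99, -1.64 and -2.75, with Slc18a3 at -0.056. Without the 4 libraries with few Xist reads they were -0.17, -0.28 and -0.30. These fits have fewer libraries, and the cause of the other changes was not tested.

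The counts of the 8 called in Sirt3-/-, APP/PS1 and APP/PS1/Sirt3-/- against WT (1, 0 and 1) became 5, 3 and 5 with DESeq2 on 12 libraries, and 6, 6 and 7 with DESeq2 on only the groups compared. Over all genes, DESeq2 called 427, 498 and 1047 on 12 libraries, and 381, 1264 and 1140 on only the groups compared, in the same order. With edgeR on only the groups compared, APP/PS1 and APP/PS1/Sirt3-/- gave 4 and 4, with 1089 and 752 genes called in all. Sirt3-/- gave 1, Lhx8 in place of Slc5a7, with 113 genes called in all. Sirt3-/- and APP/PS1/Sirt3-/- gave 0 and 0 under the replicate block, without the 3 libraries at odds in Sirt3 or App, and without those with few Xist reads. APP/PS1/Sirt3-/- gave 0 without its replicates 1 and 4, and Sirt3-/- gave 0 with few-Xist libraries as a covariate. Leaving out 1 library gave 0 to 2, 0 to 3 and 0 to 4 against WT, and 0 to 1 in APP/PS1/Sirt3-/- against Sirt3-/-. Over all genes those fits called 2 to 116, 0 to 584, 2 to 1172 and 0 to 289 in the same order. The signaling list in APP/PS1/Sirt3-/- against APP/PS1, the only comparison where its count was rerun, gave 0 to 0 with 1 library left out and 1 with DESeq2 on only the groups compared.

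Over all genes, calls in Sirt3-/- against WT ranged from 2 to 427 (49 in the fit reported), in APP/PS1 against WT from 0 to 1264 (0), in APP/PS1/Sirt3-/- against WT from 2 to 1172 (188), against APP/PS1 from 2 to 30 (4) and against Sirt3-/- from 0 to 289 (0). Over 18 pairs of libraries with the same number, deviations from group means correlated at -0.112 to 0.228, and 9 were over 0.1, against 5 of 36 pairs with other numbers. Of the 6 pairs numbered 4, the libraries with few Xist reads, 5 were over 0.1. As not every pair was, the numbers were not taken to pair libraries. Lhx8 and Gbx1 in WT rest on 2 to 7 reads a library, which limits their folds.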
